A study of Mus musculus with 12 samples.

Results

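The tumour necrosis factor (TNF) superfamily genes described here were taken by name from the table of all genes. They are the symbols Tnfsf or Tnfrsf followed by a number, together with Fas, Fasl, Tnf, Lta, Ltb, Eda, Edar and Eda2r; 3 genes of these naming series are not analysed here. This gave 36 of 23306 gene symbols, 14 ligands and 22 receptors. A filter on low counts let 31 of them (10 ligands and 21 receptors) into the tests. Fasl, Tnfsf8, Tnfsf11, Tnfsf14 and Tnfrsf13b did not pass it, and are given as values only. The rule itself used symbols only, but the family was chosen with earlier results of these data known.

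The libraries came from stromal cells sorted by flow cytometry from the thymus of C57BL/6 mice that all carry a tomato reporter for Kit ligand, the growth factor of early T-cell progenitors. There were 4 groups of 3 libraries each. Vascular endothelial cells (VEC; lineage-negative, EpCAM-negative, CD31-positive) were sorted with and without reporter signal, as tomato+ VEC and tomato- VEC. Epithelial cells were sorted as reporter-positive cortical cells (tomato+ cTEC) and reporter-negative medullary cells (tomato- mTEC), so that in the epithelium effects of reporter status and of the gate cannot be told apart. Neither the age of the mice nor whether replicates came from separate animals is given in the labels, and every p-value refers to the spread among these 12 libraries alone, which may be technical.

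Total counts were 8388869 to 11807130 per library. The sorts carried their own markers: 6 endothelial markers summed to 6439 to 9373 CPM (counts scaled to library size with the TMM method) in the VEC libraries, and 5 epithelial markers summed to 2696 to 4038 CPM in the epithelial ones and to at most 1.46 CPM in VEC. One library stood apart in this respect. The endothelial markers summed to 270.1 CPM in tomato+ cTEC replicate 2, against 1.73 to 48.5 CPM in the other epithelial libraries. Within the epithelium, 4 cortical markers summed to 1714 to 2057 CPM in cTEC and to 42.9 to 105.6 CPM in mTEC. Medullary markers, also 4, summed to 1132 to 1461 CPM in mTEC and to 404.1 to 599.8 CPM in cTEC, most of the latter Krt14. In such bulk samples, fewer cells of a type and less RNA per cell cannot be told apart.

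Ligands of this family are mostly trimeric membrane proteins, some of them shed, that cluster their receptors. Receptors with a cytoplasmic death domain can recruit FADD and caspase-8 and trigger apoptosis, while others bind TRAF adaptors and activate the canonical or the non-canonical NF-kB pathway. In the thymus the family is best known for signals from lymphoid cells that drive the maturation of medullary epithelium, and for co-stimulatory receptors on developing T cells.

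The family was read more widely in medullary epithelium than in the other sorted populations. A gene was counted as detected where at least 2 of 3 libraries had 1 CPM or more. By this measure tomato- mTEC held 27 of the 36 genes, tomato+ cTEC 20, tomato- VEC 15 and tomato+ VEC 14. Ligands made up 8, 6, 3 and 3 of these, and receptors 19, 14, 12 and 11. In all, 30 genes were detected in at least 1 group and 11 in all 4. Each of the 36 had at least 1 count in some library. By a looser measure, any count in a library, the whole table leaned the same way. It had a count for 16708 to 17015 symbols per mTEC library, 15086 to 15605 per cTEC library and 13406 to 14346 per VEC library. The share of all genes detected by the measure used for the family was not computed.

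**Figure D1:**
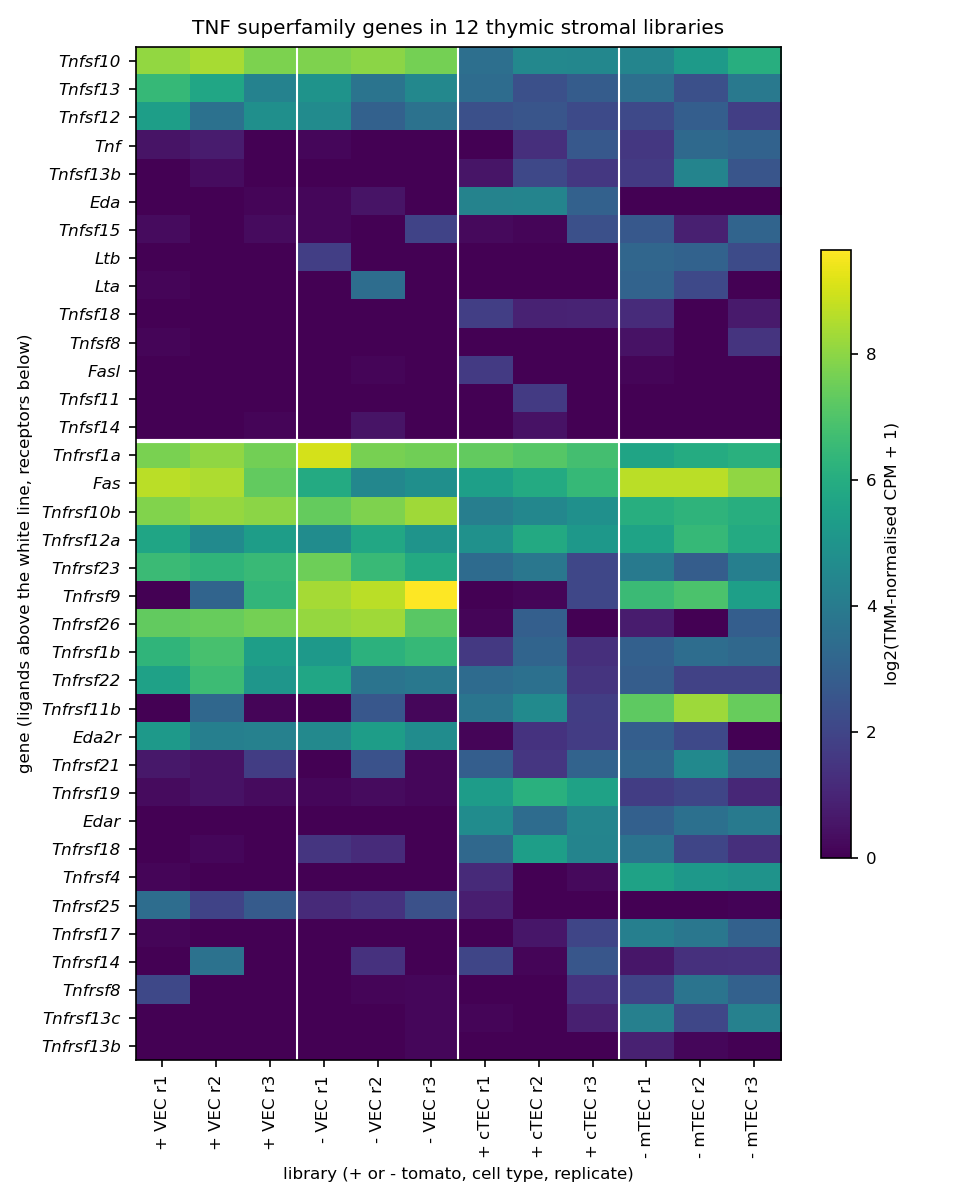
Level of the 36 TNF superfamily genes (rows; ligands above the white line, receptors below) in the 12 libraries (columns, + or - for tomato), as log2(TMM-normalised CPM + 1). Tnfsf10, Tnfrsf10b and Tnfrsf26 were bright in all 6 endothelial libraries, Fas in tomato+ VEC and tomato- mTEC, and 27 genes were detected in tomato- mTEC.

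Per transcript length, a few receptors made up most of the family's RNA. On the scale of deposited RPKM (reads scaled to transcript length and library size), which allows genes to be compared, the sum over the 36 genes was 619.2 ± 99.5 (SD, n = 3) for tomato+ VEC and 695.2 ± 69.0 for tomato- VEC. It was 254.7 ± 41.3 for tomato+ cTEC and 616.1 ± 106.2 for tomato- mTEC. Ligands contributed 92.5 ± 27.2, 65.4 ± 6.42, 19.0 ± 0.871 and 36.8 ± 4.86 RPKM of these. Fas led in tomato+ VEC (183.9 ± 74.9 RPKM) and in tomato- mTEC (251.5 ± 56.9). The T-cell co-stimulatory receptor gene Tnfrsf9 (4-1BB) led in tomato- VEC (229.6 ± 123.9), and Tnfrsf1a, the TNF receptor found on most cells, in tomato+ cTEC (69.6 ± 14.0). Tnfrsf1a was among the 6 highest members in all 4 groups, and so was Tnfrsf12a, the receptor of the ligand TWEAK.

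The promoters of 4 members are shown because they carry the patterns reported next. Fas differed between tomato+ and tomato- cells in both compartments, Eda was read in cortical epithelium, and Tnfsf10 and Tnfrsf1b were endothelial. Each is the 250 bases before the annotated start, read 5′ to 3′ on the strand of the gene, from RefSeq on GRCm38.p6; the deposited reads were aligned to mm9, so these coordinates are of another build than the files. Capitals mark matches, on either strand, to GGGNNNNNCC (a loose NF-kB motif), CNGGAAG (an ETS motif) or GACGC (the core of the FOXN1 motif). Fas lies on the plus strand at chr19:34290409-34290658, Eda on the plus strand at chrX:99975356-99975605, Tnfsf10 on the plus strand at chr3:27316827-27317076 and Tnfrsf1b on the minus strand at chr4:145246871-145247120.
Fas: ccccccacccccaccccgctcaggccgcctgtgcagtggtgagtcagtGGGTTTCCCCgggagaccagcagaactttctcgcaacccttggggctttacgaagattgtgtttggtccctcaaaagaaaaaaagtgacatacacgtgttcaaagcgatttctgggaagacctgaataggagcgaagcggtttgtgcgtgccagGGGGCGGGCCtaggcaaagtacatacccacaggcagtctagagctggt
Eda: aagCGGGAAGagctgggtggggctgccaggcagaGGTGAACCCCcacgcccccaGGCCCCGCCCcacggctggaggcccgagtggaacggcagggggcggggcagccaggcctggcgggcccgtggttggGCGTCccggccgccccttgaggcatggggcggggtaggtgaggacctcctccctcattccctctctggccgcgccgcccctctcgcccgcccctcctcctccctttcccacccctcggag
Tnfsf10: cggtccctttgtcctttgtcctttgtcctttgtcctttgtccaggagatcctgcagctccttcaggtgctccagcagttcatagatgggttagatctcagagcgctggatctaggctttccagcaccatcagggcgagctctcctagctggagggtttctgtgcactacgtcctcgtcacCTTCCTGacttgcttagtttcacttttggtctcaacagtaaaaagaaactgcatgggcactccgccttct
Tnfrsf1b: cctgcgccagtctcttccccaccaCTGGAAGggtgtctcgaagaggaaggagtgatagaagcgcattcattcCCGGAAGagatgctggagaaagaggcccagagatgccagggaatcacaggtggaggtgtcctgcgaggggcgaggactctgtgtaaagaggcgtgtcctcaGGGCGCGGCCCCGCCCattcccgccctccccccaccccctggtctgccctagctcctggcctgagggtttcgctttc
The window of Fas held 2 NF-kB matches, that of Eda 2 NF-kB matches, 1 ETS match and 1 FOXN1 core match, that of Tnfsf10 1 ETS match and that of Tnfrsf1b 3 NF-kB matches, which overlap, and 2 ETS matches. Such matches are common: 45.8% of 32851 promoter windows held the NF-kB letters, 26.6% the ETS letters and 22.6% the FOXN1 core. Of the 31 family genes with a window in the table, 20, 15 and 3 held them in the window of their first listed start; with any listed start it was 21 for NF-kB, since the window of the second start of Tnfrsf9 held 2 matches. A match describes letters and was not tested as a binding site.

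Fas, the death receptor for Fas ligand, differed between tomato+ and tomato- cells in both compartments, in opposite directions. In the epithelium these cells were cortical and medullary, so that reporter and gate cannot be told apart there. In tomato+ VEC its level was 398.7, 350.8 and 161.3 CPM in replicates 1 to 3, against 58.4, 21.04 and 26.8 CPM in tomato- VEC. All 3 reporter-positive endothelial libraries were above all 3 reporter-negative ones, with an 8.58-fold difference of the means. In the epithelium the order was turned: tomato+ cTEC had 42.6, 58.7 and 87.8 CPM and tomato- mTEC 400.5, 404.2 and 261.7 CPM, again without overlap and 5.64-fold lower in the tomato+ cells. Both changes were called by edgeR's quasi-likelihood test, with Benjamini-Hochberg adjustment over all 14792 genes tested. The log2 change was 3.10 ± 0.47 (SE derived from the F statistic of the test) in endothelium (edgeR adjusted p = 0.007245). In epithelium it was -2.50 ± 0.46 (edgeR adjusted p = 0.00783). The difference between these changes was itself called, at 5.60 ± 0.66 on the log2 scale (adjusted p = 0.001779). Fas kept each of these calls in every alternative run. Its ligand, Fasl, had 23 counts in 1 cTEC library (replicate 1) and at most 1 count per group elsewhere.

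Fas was the single member called between the endothelial groups, 1 of 31 tested, where 1.65% of all genes tested were called (0.568% higher and 1.08% lower in tomato+ VEC). Tnfrsf9 was the one member that was not called and yet had no overlap between these groups. Its level was 0, 7.72 and 80.5 CPM in tomato+ VEC and 327.2, 405.3 and 806.8 CPM in tomato- VEC. No library of one group reached the other, and the mean was 17.5-fold lower in tomato+ VEC, but replicates within each group were far apart and edgeR gave a log2 change of -4.12 ± 1.54 (adjusted p = 0.2096). It was called in none of 17 alternatives, DESeq2 among them, with adjusted p from 0.06702 to 0.3511. The lowest came without tomato+ VEC replicate 3, which held most of that group's reads of the gene (log2 change -7.06). The other members tested overlapped between the endothelial groups. How many of all genes had no overlap there was not computed.

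Some markers of lymphatic endothelium moved with the endothelial contrast. Of 3 tested, Lyve1 and Pdpn were called lower in tomato+ VEC, while Flt4 was not called, at 53.2, 48.3 and 61.4 CPM in tomato+ VEC and 17.7, 24.01 and 72.7 CPM in tomato- VEC; Lyve1 had 0 counts there and 36.4 to 78.2 CPM in tomato- VEC, and the summed level of 4 such markers was 48.7 to 61.5 CPM against 85.2 to 173.1 CPM, with Flt4 making up most of the former. Their part in the levels of Fas and Tnfrsf9 was not tested. Platelet markers summed to 174.2 CPM in tomato- VEC replicate 1 and to 3.32 to 18.3 CPM in the other endothelial libraries. The same library had the highest Tnfrsf1a value of the 12, 519.8 CPM against 187.7 to 265.5 CPM in the other 5 endothelial libraries; the part of platelets in it was not tested.

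**Figure D2:**
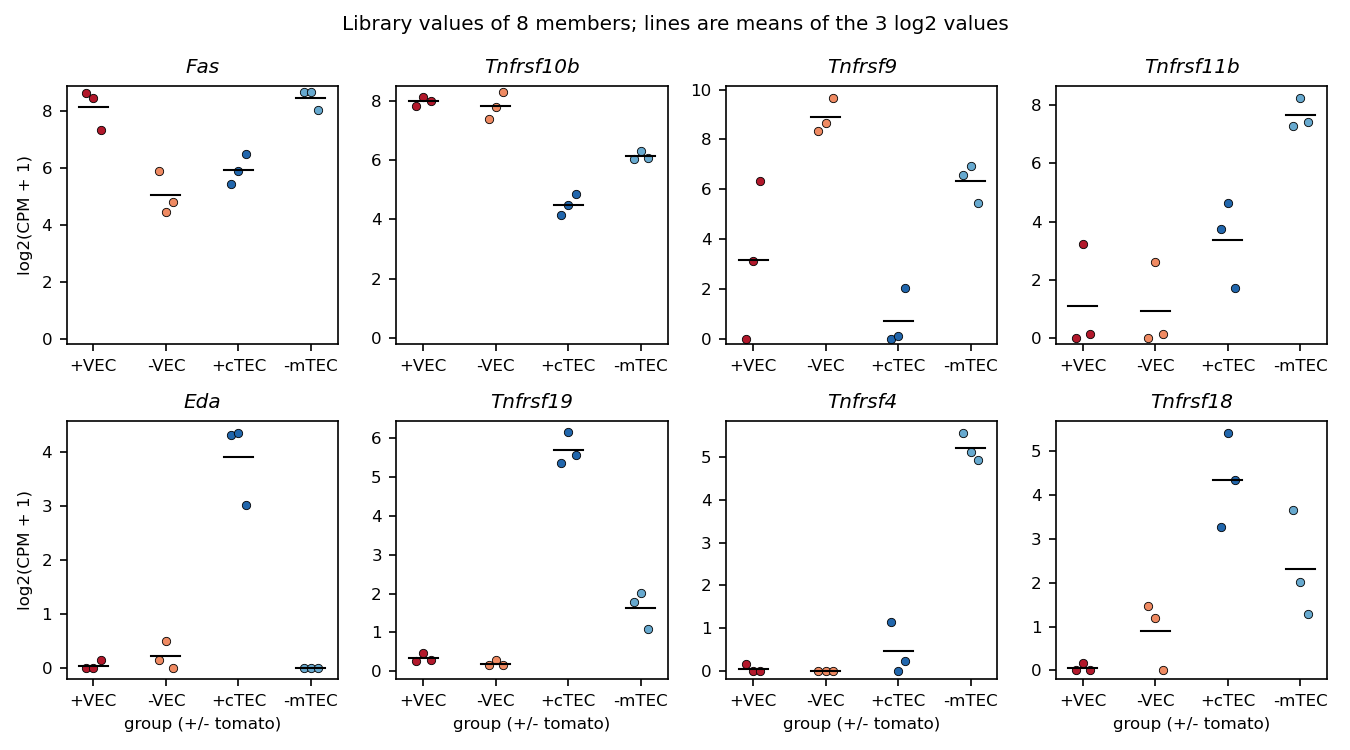
Level of 8 members in each library as log2(CPM + 1), by group (+ or - for tomato); points are libraries and the line is the mean of the 3 log2 values, and the vertical scale differs between panels. Fas was high in tomato+ VEC and tomato- mTEC, Eda stood at 0 in the 3 mTEC libraries and at 7.1 to 19.4 CPM in cTEC, and Tnfrsf9 was spread from 0 to 80.5 CPM within tomato+ VEC.

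Between the epithelial groups 5 of 31 members were called, 2 higher and 3 lower in tomato+ cTEC, where 7.83% of all genes tested were called (2.73% higher and 5.1% lower). The median log2 change was -1.20 over the 31 members tested and 0.02 over all genes tested. Mesenchymal markers, 4 genes summed, ran from 1561 to 2077 CPM in cTEC, most of it Dcn (called higher there, edgeR adjusted p = 0.02121), and from 138.4 to 378.3 CPM in mTEC; their part in the calls of members was not tested. The 2 genes higher in cortex were Eda, the ligand ectodysplasin of ectodermal organ development, and Tnfrsf19 (TROY), an orphan receptor of the same developmental branch. The 3 lower in cortex were Fas, Tnfrsf10b, which is the TRAIL receptor of the mouse and carries a death domain, and Tnfrsf4 (OX40), a co-stimulatory receptor known from activated T cells.

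Eda was read almost entirely in the cortical libraries. Tomato+ cTEC had 18.9, 19.4 and 7.1 CPM, from 486 counts in all, while the 3 tomato- mTEC libraries had 0 counts and the VEC groups 1 and 5 counts. A count of 0 over the mTEC group allows up to 3 counts, or 0.0954 CPM, so that Eda was at least 156-fold higher in cTEC (edgeR adjusted p = 0.01322). The difference from the endothelial contrast was called too (edgeR adjusted p = 0.02834). Without mTEC replicate 1 the first call was lost (adjusted p = 0.0525). The second was lost with 9 of the 12 single libraries left out and with the replicate number as a block, with adjusted p up to 0.102.

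Edar, the receptor for one splice form of ectodysplasin, was epithelial but did not pass the test between cortex and medulla. It stood at 25.04, 9.60 and 20.2 CPM in tomato+ cTEC and at 6.85, 10.7 and 14.7 CPM in tomato- mTEC, overlapping ranges (adjusted p = 0.7523 by edgeR). All 6 endothelial libraries had 0 counts of Edar, at least 266-fold below the epithelial mean by the floor of 3 counts over the 6 libraries (edgeR adjusted p = 0.0001218). Its adaptor Edaradd followed the same split, with 61.6 to 155.9 CPM in the epithelial libraries and 0 to 8.02 CPM in the endothelial ones (adjusted p = 3.105e-05 by edgeR). Eda2r, which binds the other splice form, went the other way: 17.0 to 40.4 CPM in the 6 endothelial libraries and 0 to 6.36 CPM in the 6 epithelial ones, without overlap (log2 difference 3.65 ± 0.98, edgeR adjusted p = 0.01176).

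Tnfrsf19 stood at 39.9, 69.6 and 46.6 CPM in tomato+ cTEC, at 2.41, 3.02 and 1.12 CPM in tomato- mTEC and at no more than 0.392 CPM in any endothelial library. The cortical mean was 23.8-fold the medullary one, with a log2 difference of 4.57 ± 0.73 (edgeR adjusted p = 0.003449). Tnfrsf18 (GITR), a co-stimulatory receptor of regulatory T cells, was also highest in cTEC, at 8.62, 42.0 and 19.3 CPM, but mTEC values of 11.7, 3.02 and 1.44 CPM overlapped with these and the test was not passed (adjusted p = 0.4418 by edgeR). Its highest value came from the cTEC library with endothelial markers, while endothelial libraries themselves had at most 1.78 CPM of the gene. An antisense gene overlaps Tnfrsf18, and without a known strand setting its reads cannot be told apart from those of Tnfrsf18. Markers of the T lineage, 9 genes summed, ran from 60.4 to 108.3 CPM in cTEC, with 8 of the 9 detected, and from 18.5 to 38.0 CPM in mTEC with 3 of 9; their part in Tnfrsf18 and Tnfrsf19 was not tested. Tnfrsf18 and Tnfrsf4 are neighbours on chromosome 4, yet the values of Tnfrsf4 ran the other way.

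Tnfrsf4 was read at 46.8, 34.2 and 29.8 CPM in tomato- mTEC and at 1.19, 0 and 0.173 CPM in tomato+ cTEC, with 1 count in the 6 endothelial libraries together. The mean was 81.1-fold lower in cTEC (log2 -6.30 ± 1.49, edgeR adjusted p = 0.03126). The call was lost when cTEC replicate 2 or 3, or any 1 of the mTEC libraries, was left out, with adjusted p from 0.0689 to 0.101. Tnfrsf10b was 3.15-fold lower in cTEC, at 16.7, 21.5 and 27.8 CPM against 65.0, 77.4 and 65.6 CPM (log2 -1.66 ± 0.28, edgeR adjusted p = 0.00541). The endothelial groups overlapped, with 224.0, 277.3 and 253.9 CPM in tomato+ VEC and 165.4, 221.8 and 310.8 CPM in tomato- VEC. The difference between the contrasts of Tnfrsf10b was called at 1.77 ± 0.39 (edgeR adjusted p = 0.03432), but not after leaving out any 1 of 8 libraries, with adjusted p up to 0.0907. In all, the contrast of tomato+ against tomato- cells differed between compartments for 3 of 31 members (Fas, Tnfrsf10b and Eda), beside 3.08% of all genes tested. In the epithelium this contrast is also that of cortex against medulla.

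A further group of members had no overlap between cortex and medulla without passing the test. They were picked for that lack of overlap. The share of all genes without overlap was not computed. Tnfrsf11b encodes osteoprotegerin, the soluble decoy that binds RANK ligand and TRAIL. It was the second highest member of mTEC per length, at 153.7, 300.2 and 169.1 CPM, against 12.4, 23.8 and 2.34 CPM in cTEC (16.2-fold, edgeR adjusted p = 0.1877). Tnfrsf9 had 94.98, 121.5 and 42.5 CPM in mTEC against 0, 0.098 and 3.20 CPM in cTEC (78.4-fold, edgeR adjusted p = 0.05069). It fell just outside the threshold and passed it in 8 alternatives, DESeq2 (0.0115) and the fit of the 6 epithelial libraries alone (0.0121) among them. For Tnfrsf11b that fit gave an adjusted p of 0.00861, the one alternative of 17 in which it passed.

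Another 4 members were also not called between cortex and medulla. Ltb, a lymphotoxin chain, had 8.10, 7.21 and 3.61 CPM in mTEC and 0 counts in cTEC, at least 66.1-fold more (edgeR adjusted p = 0.0857). Tnfrsf13c, the BAFF receptor, had 17.5, 3.14 and 17.96 CPM in mTEC and at most 0.779 CPM in cTEC (edgeR adjusted p = 0.09027). Tnfrsf17 (BCMA), a receptor of plasma cells, had 16.8, 13.3 and 6.89 CPM against 0, 0.49 and 3.03 CPM, and Tnfrsf8 (CD30) had 2.80, 12.2 and 7.05 CPM against 0, 0 and 1.65 CPM (edgeR adjusted p = 0.2743 and 0.3849). For each of these 4 the mTEC libraries were all above the cTEC libraries, which is the trait by which they were picked. Of the markers of B cells, Cd79b stood at 32.9, 35.3 and 7.21 CPM in mTEC and at 0 to 2.51 CPM in cTEC, while Ms4a1 was at 0.233 CPM or less in mTEC. Myeloid markers summed to 357.9 to 401.7 CPM in mTEC, most of it Lyz2, and to 9.80 to 158.6 CPM in cTEC. Of 4 tested, 0 were called between these groups, and Cd68 went the other way, with means of 7.15 CPM in mTEC and 13.9 CPM in cTEC. The part of such cells in these receptors and in Ltb was not tested.

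Most calls of members fell between endothelium and epithelium, a comparison of 6 libraries with 6. The calls over all genes tested leaned the same way. Of 31 members, 22 were called, 12 higher and 10 lower in endothelium, where 36.3% of all genes tested were called (14.4% higher and 21.8% lower). The median log2 difference was -0.53 over the members tested and -0.18 over all genes tested. Another scaling of the libraries (relative log expression) shifted the median of all genes by -0.1311 and left the 12 and 10 calls at 12 and 10. Markers of other cells moved with this comparison too. Lower in endothelium were 5 of 8 T-lineage markers tested, 2 of 4 myeloid and 3 of 4 mesenchymal ones and the B-lineage marker Cd79b, and the platelet markers Pf4 and Itga2b were higher. T-lineage markers summed to 1.91 to 32.9 CPM in VEC and 18.5 to 108.3 CPM in epithelium, and mesenchymal ones to 5.83 to 47.0 CPM and 138.4 to 2077 CPM. Most of the mesenchymal sum in epithelium was Dcn, with means of 1864 CPM in cTEC and 241 CPM in mTEC. Pdgfra, Pdgfrb and Col1a1 had means of at most 10.05 CPM in either group. The part of such other cells in the calls of members was not tested. Among the 10 ligands tested, 3 were higher and 3 lower in endothelium, and among the 21 receptors 9 were higher and 7 lower.

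**Figure D3:**
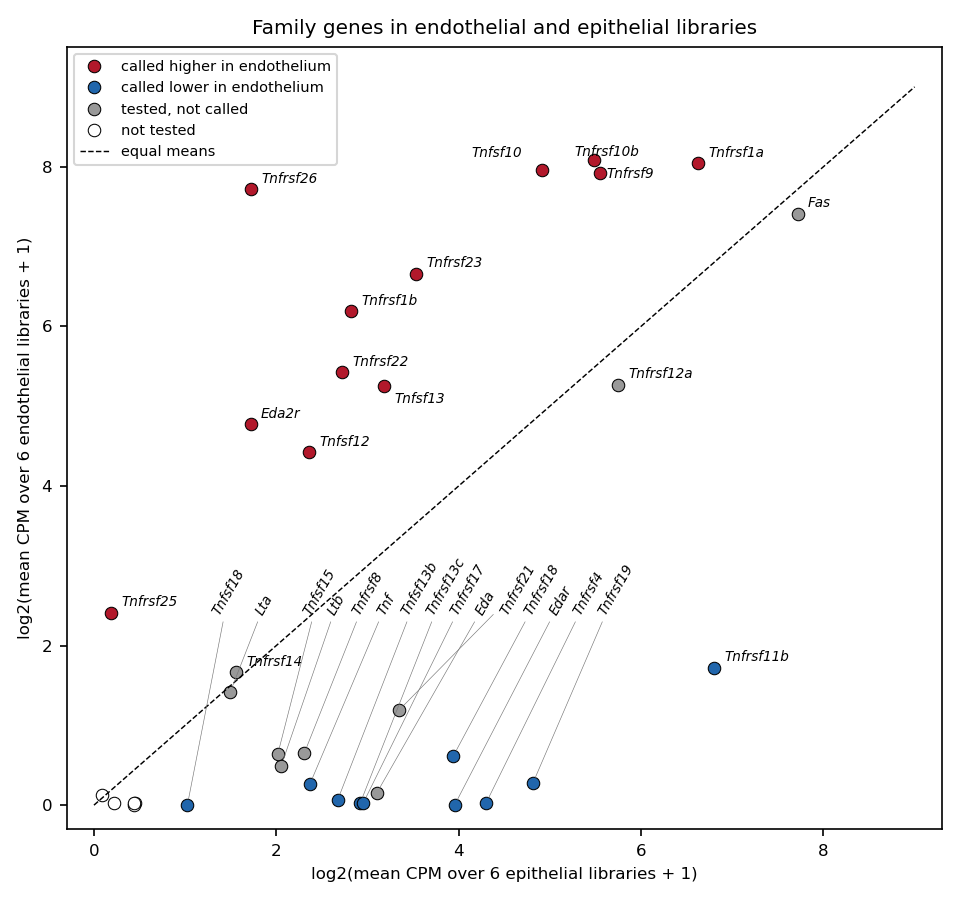
Mean level of the 36 family genes over the 6 endothelial libraries (vertical) against the 6 epithelial libraries (horizontal), as log2(mean CPM + 1); the dashed line marks equal means and colours give the call of the edgeR fit. The 12 genes called higher in endothelium lie above the line and the 10 called lower lie below it, while Fas and Tnfrsf12a lie near it.

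The 3 endothelial ligands were Tnfsf10, Tnfsf12 and Tnfsf13. Tnfsf10 encodes TRAIL, a death-inducing ligand, and was the most abundant ligand of both VEC groups. It stood at 268.5, 338.1 and 212.9 CPM in tomato+ VEC and at 217.6, 253.3 and 197.7 CPM in tomato- VEC, against 10.5 to 21.6 CPM in cTEC and 20.1 to 65.0 CPM in mTEC. Every endothelial library was above every epithelial one (8.50-fold, log2 3.20 ± 0.31, edgeR adjusted p = 8.378e-06). Its receptor Tnfrsf10b was endothelial as well, 165.4 to 310.8 CPM against 16.7 to 77.4 CPM (5.30-fold, log2 2.63 ± 0.21, edgeR adjusted p = 1.554e-06). Ligand and receptor were thus both highest in the same sorted cells.

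Tnfsf12 (TWEAK) and Tnfsf13 (APRIL, a survival factor of plasma cells) were 4.94-fold and 4.59-fold higher in endothelium, with edgeR adjusted p of 0.007271 and 0.006929. Tnfsf12 had 6.91 to 41.9 CPM in VEC and 2.49 to 6.39 CPM in epithelium, without overlap, while for Tnfsf13 the ranges of 12.0 to 88.3 CPM and 4.12 to 13.95 CPM overlapped. The genes lie side by side and share exon sequence with a read-through transcript, so reads of one could be counted for the other. The TWEAK receptor gene Tnfrsf12a had overlapping ranges in the compartments: 23.4 to 54.9 CPM in VEC, 28.6 to 57.3 CPM in cTEC and 47.5 to 87.4 CPM in mTEC (edgeR adjusted p = 0.3374 for endothelium against epithelium). Of the receptors for APRIL, Tnfrsf17 was read in mTEC as given above and Tnfrsf13b had 10 counts in mTEC and at most 1 in each other group.

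The ligands lower in endothelium were all at low levels. Tnf itself had 0 to 0.654 CPM in VEC, 0, 1.47 and 5.37 CPM in cTEC and 1.93, 8.95 and 7.21 CPM in mTEC (21.1-fold, edgeR adjusted p = 0.01632), a call that was lost with the replicate block (0.0715) and without cTEC replicate 3 (0.05002). Tnfsf13b (BAFF, a survival factor of B cells) had 2 counts in the 6 endothelial libraries and 0.459 to 19.5 CPM in the epithelial ones (edgeR adjusted p = 0.002817). Tnfsf18, the GITR ligand, had 0 counts in endothelium and 0 to 2.48 CPM in epithelium, at least 19.1-fold more (edgeR adjusted p = 0.009594). Lta, the other lymphotoxin chain, and Tnfsf15, the ligand of Tnfrsf25, were read unevenly at up to 9.88 and 7.70 CPM and passed no comparison. Of the untested ligands, Tnfsf11 (RANK ligand) had 22 counts, all in cTEC replicate 2, and Tnfsf8 (CD30 ligand) had 26 counts in mTEC and 1 elsewhere. Tnfsf14 (LIGHT) had at most 4 counts in any group.

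**Figure D4:**
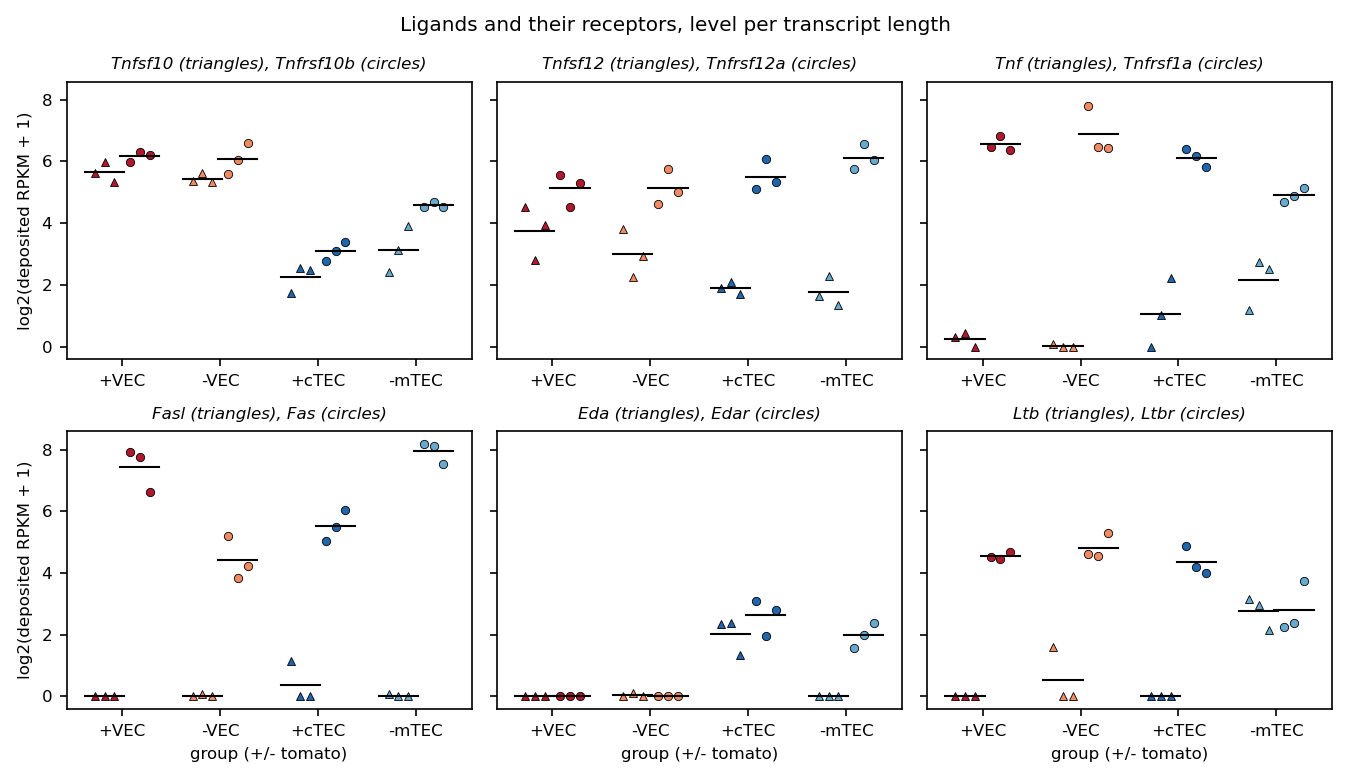
Deposited RPKM of 6 ligands (triangles) and a receptor of each (circles) in every library, as log2(RPKM + 1), by group (+ or - for tomato); the line is the mean of the 3 log2 values. Tnfsf10 and Tnfrsf10b were both highest in VEC, Tnf and Fasl were low where their receptors were high, and Eda and Edar were both read in cTEC.

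Receptors for TNF were read at higher levels in endothelium. Tnfrsf1a, with a death domain, had 187.7 to 519.8 CPM in VEC, 108.6 to 159.9 CPM in cTEC and 49.5 to 69.8 CPM in mTEC (2.70-fold for endothelium against epithelium, log2 1.53 ± 0.26, edgeR adjusted p = 0.000677). Its step between cTEC and mTEC, without overlap, was not called (edgeR adjusted p = 0.07446). Tnfrsf1b, the TRAF-binding TNF receptor of endothelium and lymphocytes, had 36.1 to 113.8 CPM in VEC and 1.47 to 10.0 CPM in epithelium (11.8-fold, log2 3.68 ± 0.49, edgeR adjusted p = 0.0001061). Tnfrsf25, the death-domain receptor of TL1A, was lower but followed the same split, with 1.23 to 9.98 CPM against 0 to 0.734 CPM (edgeR adjusted p = 0.005908).

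A cluster of 3 neighbouring genes on chromosome 7, Tnfrsf26, Tnfrsf22 and Tnfrsf23, was endothelial throughout. Tnfrsf22 and Tnfrsf23 encode decoy receptors of TRAIL that lack a death domain. Tnfrsf26 had 144.0 to 308.8 CPM in VEC and 0 to 6.66 CPM in epithelium (91.1-fold, log2 6.47 ± 1.12, edgeR adjusted p = 0.0007343). Tnfrsf23 had 56.7 to 185.2 CPM against 3.20 to 17.1 CPM, and Tnfrsf22 had 12.0 to 96.5 CPM against 1.73 to 10.9 CPM (9.47-fold and 7.47-fold, edgeR adjusted p = 0.0001126 and 0.003045). None of the 3 passed between the reporter groups of either compartment. Tnfrsf22 and Tnfrsf23 share 719 stretches of 50 bases, 17.3% and 18.01% of their transcript sequence, so that their reads could be split between them, and an antisense gene overlaps Tnfrsf23 and Tnfrsf26. TRAIL, its death receptor and the decoys Tnfrsf22 and Tnfrsf23 were therefore all higher in endothelium than in epithelium. The soluble decoy Tnfrsf11b was lower in endothelium, 48.0-fold by mean CPM (fitted log2 -4.53 ± 1.225, edgeR adjusted p = 0.01215). Most of that fold came from mTEC, at 207.7 ± 80.5 CPM (SD, n = 3). Tomato+ cTEC had 12.8 ± 10.8 CPM, and its lowest library, at 2.34 CPM, lay below the highest of tomato+ VEC (8.37 CPM) and of tomato- VEC (5.21 CPM).

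The call of Tnfrsf9 between endothelium and epithelium (log2 3.63 ± 1.10, edgeR adjusted p = 0.02113) was made although its libraries overlapped between the compartments. It was lost without tomato+ VEC replicate 3 (0.0872) or mTEC replicate 3 (0.0506). The receptors lower in endothelium were Edar, Tnfrsf4, Tnfrsf11b, Tnfrsf13c, Tnfrsf17, Tnfrsf18 and Tnfrsf19. Tnfrsf13c and Tnfrsf17 had 1 count each in the 6 endothelial libraries, and the epithelial values of all 7 are given above. Each of these 7 kept its call in every alternative run, but not all stood clear of VEC in both epithelial groups. For Tnfrsf4, Tnfrsf13c and Tnfrsf17 the cTEC libraries overlapped with the VEC ones. They had 0 to 1.19, 0 to 0.779 and 0 to 3.03 CPM in cTEC, and at most 0.112 CPM in VEC. For Tnfrsf18 the lowest mTEC library, at 1.44 CPM, lay below the highest VEC one, at 1.78 CPM. Fas was not called between the compartments (log2 -0.53 ± 0.31, edgeR adjusted p = 0.214), being high in 1 group of each. The remaining receptors, Tnfrsf14 and Tnfrsf21, were read at up to 11.5 and 23.0 CPM and passed no comparison.

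Members of the family with other symbols were looked at beside these. Of 6 tested, 0 were called by edgeR between the endothelial groups (1 at an unadjusted p under 0.05, 1 by DESeq2) and 0 between the epithelial groups (4 unadjusted, 3 by DESeq2), comparisons in which 1.65% and 7.83% of all genes tested were called. Between endothelium and epithelium 4 of the 6 were called, beside 36.3% of all genes tested. Ltbr, the receptor of lymphotoxin and LIGHT, was 2.20-fold higher in endothelium (48.7 to 80.9 CPM in VEC, 28.6 to 53.6 CPM in cTEC, 7.33 to 24.5 CPM in mTEC; edgeR adjusted p = 0.01215). The ligand gene Cd70 had 30.2 to 53.9 CPM in mTEC, 0.98 to 6.69 CPM in cTEC and 1 count in VEC, and the neurotrophin receptor gene Ngfr 6.15 to 14.0 CPM in cTEC, 2.31 to 11.0 CPM in mTEC and 3 counts in VEC. Cd40, a receptor for T-cell help, had 315.4, 312.3 and 223.0 CPM in mTEC, 6.42 to 28.4 CPM in cTEC and 0 to 25.3 CPM in VEC. It was called lower in endothelium (edgeR adjusted p = 0.02123), a call lost without tomato+ VEC replicate 2, tomato- VEC replicate 3 or cTEC replicate 3 (0.0511 to 0.0553), and fell just outside between cTEC and mTEC (edgeR adjusted p = 0.05164).

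Downstream of the receptors, 37 genes of TRAF adaptors, the NF-kB pathway and death signalling were tested. Between the endothelial groups 0 were called by edgeR, while 9 had an unadjusted p under 0.05 and DESeq2 called 4. Between the epithelial groups edgeR called 6 lower and 0 higher in tomato+ cTEC, 16.2% of the 37 beside 7.83% of all genes tested (5.1% lower). At an unadjusted p under 0.05, 12 were lower and 1 higher, and DESeq2 called 8 lower and 1 higher. The higher gene was Nfkb1 in both (edgeR adjusted p = 0.05728). The 6 called by edgeR were the apoptosis inhibitors and TRAF partners Birc2 and Birc3, the TRAF-binding gene Tank, the non-canonical NF-kB subunit gene Nfkb2, and the NF-kB inhibitors Nfkbie and Tnip1. Birc3 stood at 26.2, 37.3 and 63.7 CPM in cTEC and at 221.5, 272.2 and 236.1 CPM in mTEC (5.73-fold, edgeR adjusted p = 0.00393). Birc2 was 3.51-fold and Tank 5.51-fold lower in cTEC (adjusted p of 0.00318 and 0.008076 by edgeR), and Nfkbie was 4.48-fold lower (0.01515), the last call being lost without cTEC replicate 1 or 2 or mTEC replicate 1.

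Between endothelium and epithelium 10 of the 37 signalling genes were higher and 2 lower, a share of 32.4% called that was no larger than the 36.3% over all genes tested. The kinase gene Ripk1 had 90.5 to 133.1 CPM in VEC and 22.0 to 41.6 CPM in epithelium, and Casp8, the caspase that death receptors engage, 151.6 to 315.0 CPM against 12.1 to 87.4 CPM (3.44-fold and 5.14-fold, edgeR adjusted p = 0.0001081 and 0.0005452). Xiap, an inhibitor of caspases, was 4.05-fold higher (edgeR adjusted p = 2.299e-05). For these 3 genes no library of one compartment reached the other. The 2 lower genes were Edaradd, given with Edar, and Nfkb1, at 1.92-fold, whose edgeR adjusted p of 0.04912 was over 0.05 in 12 of 16 alternatives. Nfkb1 was high in cTEC alone, with a mean of 282.6 CPM. Its mTEC mean of 106.1 CPM lay between those of tomato+ VEC (87.0 CPM) and tomato- VEC (115.2 CPM). For the difference between the reporter contrasts edgeR called 0 of the 37, with 7 at an unadjusted p under 0.05, and DESeq2 called 2.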

How the data were processed

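Poly(A) RNA of sorted cells was made into cDNA with the SMARTer kit for very low input, per the labels' protocols. TopHat2 2.0.10 and the build mm9 stand in the submitters' processing notes. How reads were counted, with which annotation, strand setting and filters, is not given in the sources used here. Whole-number read counts and RPKM values are deposited for each gene symbol, with a column of each kind per library, per the file headers. For 19846 genes checked, each deposited RPKM equalled the count over the column total and 1 gene length (relative tolerance 1e-06). No deposited column was left unused.

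Counts were tested with edgeR 4.0.16 (R 4.3.3): filterByExpr (minimum count 10), TMM, and a quasi-likelihood fit of 12 libraries with a term per group (8 residual degrees of freedom, 14792 genes). A call needed an adjusted p (Benjamini-Hochberg) under 0.05. The SE given with a log2 change is its size over the square root of the quasi-likelihood F statistic, not a fitted standard error. Compared were the 2 VEC groups (tomato+ minus tomato-), cTEC with mTEC, both endothelial against both epithelial groups (log-scale means), and the difference of the first 2. Levels within a gene are TMM-scaled CPM and folds are ratios of their means. Where a side had 0 counts, the fold is a bound from a floor of 3 counts over that side. Floors cover counting error only. Between genes, RPKM was compared.

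Named were members called anywhere, the 6 highest by RPKM per group, uncalled members of the first 2 comparisons without overlap and with a log2 change of at least 2, and their ligand or receptor partners, and at most 4 called signalling genes per direction. Other members and signalling genes were named after their values were seen. Some genes of the lists are not reported here. The members and lists were chosen with earlier results of these data known. Promoters came from RefSeq (GRCm38.p6), with shared sequence and overlapping genes from GENCODE M21. Alternatives were DESeq2 1.42.0, relative log expression scaling, no filter, the replicate block, the 6 libraries compared, and leaving out each library. The fit was tested on simulated data.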

Additional observations from a re-analysis of the deposited data

Results flagged for a closer look

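For 3 members the contrast of tomato+ against tomato- cells differed between endothelium and epithelium by edgeR's test of the difference. The adjusted p was 0.001779 for Fas, 0.02834 for Eda and 0.03432 for Tnfrsf10b. Fas was higher in tomato+ cells of the endothelium and lower in those of the epithelium, in all 3 libraries against all 3 in each. For Eda and Tnfrsf10b the step lay in the epithelium, and the calls of the difference did not hold when single libraries were left out.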

How the results depend on the processing

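Of 31 calls of members, 25 held in every alternative, and no result changed direction. The members called between cTEC and mTEC numbered 5, against 9 with DESeq2, 10 with the 6 epithelial libraries alone and 3 to 7 with 1 library left out (3 without mTEC replicate 1). For the difference of the contrasts they numbered 3, against 6 with DESeq2 and 1 to 3 with 1 library left out; 7 single libraries (tomato+ VEC replicate 2, tomato- VEC replicate 2, cTEC replicates 1 and 2, each mTEC library) each brought it to 1, Fas. The count between endothelial groups was 1 throughout, and that between compartments was 21 to 23 with 1 library left out.

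Over all genes, 244 were called between endothelial groups, against 1253 with DESeq2 and 112 with 6 libraries (174 to 394 with 1 left out, the highest without tomato+ VEC replicate 3). Between epithelial groups 1158 were called, against 1973 with DESeq2 and 2487 with 6 libraries (428 to 1193; over 1.5 times fewer without any 1 of the 6 epithelial libraries). For the difference the count was 456, against 1418 with DESeq2 and 269 with the replicate block (159 to 491; over 1.5 times fewer without tomato- VEC replicate 1, cTEC replicate 1 or 3, or any mTEC library), and between compartments 5363 (4568 to 5501). The cause of these moves was not tested. No label says whether replicate numbers pair the samples. Deviations of same-numbered libraries correlated at 0.00237 to 0.0687 between the VEC groups and -0.0137 to 0.0245 between the epithelial groups. Over all 6 pairs of groups the range was -0.0137 to 0.0687. Such small correlations do not settle whether the numbers pair libraries. Every sample correlated best with its own number for tomato+ cTEC with either VEC group, and in no other pair. With the replicate block, the members called were 1, 6, 21 and 2 in the 4 comparisons. Low counts kept Fasl, Tnfsf8, Tnfsf11, Tnfsf14 and Tnfrsf13b out of the tests.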
